A study of Mus musculus with 9 samples.

Results

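Goblet cell and secretory lineage genes of the fetal mouse intestine are described here through 8 members: the transcription factors Atoh1 and Spdef, the folding enzyme Agr2, the secreted mucus proteins Muc2, Fcgbp, Clca3 and Tff3, and the membrane protein Hepacam2. They were taken by gene symbol from the deposited count table, in which they are 8 of 24016 identifiers, and all 8 passed the filter on low counts that left 15699 identifiers for testing. The members were chosen by name after the counts of all 9 libraries, the values described here, had been examined, so their levels and differences are given as a description without a p-value. The other gene lists used below were also chosen with earlier results of these data known. Tests of listed genes, and counts of their calls, are thus no independent support. RNA was sequenced in 9 libraries, 3 groups of 3, from intestine of E14.5 embryos of wild type C57BL/6 mice. The first group is cyclopamine-treated whole intestine, and cyclopamine is a plant compound that inhibits Smoothened and with it hedgehog signalling. The second is the separated intestinal epithelium, and the third the separated intestinal mesenchyme, both untreated. Per the series design, intestines spent 24 hours in transwell culture with or without cyclopamine, but no source used here states if the epithelium and mesenchyme were cultured too. Untreated whole intestine was not analysed here, so treatment, tissue make-up and culture cannot be told apart in any comparison of treated intestine with a separated layer. The labels do not say whether the libraries of a group came from separate embryos or pools, so the errors and tests cover only how much these libraries vary.

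Goblet cells secrete the mucus gel that covers the intestinal epithelium. In the adult mouse gut, progenitors in which Notch signalling is low express the basic helix-loop-helix factor Atoh1 and enter the secretory lineage, while Notch acting through Hes1 represses Atoh1. Spdef, an ETS family factor that acts downstream of Atoh1, drives goblet cell maturation, and mature goblet cells make Muc2, the main gel-forming mucin of the intestine, with the help of the endoplasmic reticulum disulfide isomerase Agr2. Hedgehog ligands are made by the gut epithelium and act mainly on the mesenchyme beneath it.

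The sequences before the start sites show what members at both ends of the difference between treated intestine and epithelium do and do not share. RefSeq promoter sequences on GRCm38.p6, a later build than the authors' mm9, were found for 6 of the 8 members, and the 250 bases before the start site were searched on both strands. Muc2 (chr7:141690090-141690339, plus strand) and Agr2 (chr12:35992675-35992924, plus strand) are shown for the genes lowest in treated intestine relative to epithelium among those with a sequence. Spdef (chr17:27728952-27729201, minus strand) and Atoh1 (chr6:64728875-64729124, plus strand) are shown for the regulators that were least low. Capitals mark CAGCTG, an E-box of the kind basic helix-loop-helix factors bind, and TTTATG or its reverse complement CATAAA, a letter string of the kind the intestinal Cdx factors bind. Each sequence reads 5′ to 3′ on the gene's own strand and ends at the base before the start site.
Muc2: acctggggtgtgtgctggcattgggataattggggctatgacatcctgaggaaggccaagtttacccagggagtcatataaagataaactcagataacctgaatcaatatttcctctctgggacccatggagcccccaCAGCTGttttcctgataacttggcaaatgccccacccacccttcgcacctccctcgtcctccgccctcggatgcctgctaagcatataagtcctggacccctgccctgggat
Agr2: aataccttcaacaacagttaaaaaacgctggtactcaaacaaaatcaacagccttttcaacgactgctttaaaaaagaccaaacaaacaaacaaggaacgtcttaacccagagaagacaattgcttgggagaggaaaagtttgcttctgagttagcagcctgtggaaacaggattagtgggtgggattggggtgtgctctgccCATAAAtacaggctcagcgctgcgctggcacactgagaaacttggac
Spdef: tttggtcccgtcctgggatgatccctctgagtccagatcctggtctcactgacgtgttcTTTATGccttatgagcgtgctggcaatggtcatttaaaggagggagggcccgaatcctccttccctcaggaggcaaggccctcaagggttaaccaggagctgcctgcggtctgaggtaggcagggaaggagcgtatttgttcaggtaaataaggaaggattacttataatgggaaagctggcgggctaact
Atoh1: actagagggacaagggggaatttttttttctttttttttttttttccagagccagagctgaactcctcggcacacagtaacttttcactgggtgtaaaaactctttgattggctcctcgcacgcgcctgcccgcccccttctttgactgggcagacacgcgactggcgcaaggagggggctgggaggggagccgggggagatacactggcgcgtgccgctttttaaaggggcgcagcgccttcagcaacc
The string CAGCTG lay in the windows of Muc2 (first base at position -112, counted back from -1 at the base before the start site), Fcgbp (-208) and Hepacam2 (-31), and in 13% of all 32851 promoters of that length. The string TTTATG, on either strand, lay in the windows of Agr2 (-47) and Spdef (-191) and in 10.8% of all promoters. The E-box CAGATG and the Gli-type string GACCACCCA lay in none of the 6 windows, against 14.4% and 0.225% of all promoters. The Rbpj-type string TGGGAA lay in the Spdef window alone among the 6 (-22; 21.6% of all promoters), and the Spdef-type string AGGAT in those of Muc2, Agr2, Fcgbp and Spdef (35.8% of all promoters). None of the strings overlaps another in the printed windows, and the Atoh1 window held none of them. A letter match is not a binding site, and a window without a match says nothing about the factor.

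Total counts were 14325792 to 18274881 in treated intestine, 19934048 to 22836297 in epithelium and 9739394 to 26357115 in mesenchyme. Mesenchyme library 1 stood apart, with 59.1% of its counts in the ribosomal RNA gene Rn45s and 3284702 counts outside Rn45s, Lars2 and Mir6236, so its levels rest on fewer counts. Levels are CPM (counts scaled to a common library size) on library sizes scaled by TMM, and 3 counts, the upper limit that a count of 0 allows, equal 0.138 to 0.174 CPM in treated intestine, 0.123 to 0.143 CPM in epithelium and 0.104 to 0.794 CPM in mesenchyme. Such limits cover counting error only. The summed level of 24 epithelial markers was 2715 to 3364 CPM in treated intestine, 8772 to 9523 CPM in epithelium and 257 to 306 CPM in mesenchyme, and no epithelial marker was at 0 in any library. The summed level of 20 mesenchyme markers was 6818 to 7199 CPM in treated intestine, 298 to 1547 CPM in epithelium and 14594 to 20049 CPM in mesenchyme. The hedgehog target Gli1 had 2.60, 1.10 and 1.10 CPM in treated intestine against 228, 216 and 201 CPM in mesenchyme, and the log2 difference was -7.07 (SE 0.64, adjusted p = 5.41e-05 by edgeR's quasi-likelihood test). Muc2, Tff3 and the other mucus genes are also made by other mucous epithelia. Airway marker transcripts other than Foxj1 were at or near 0 in every library, and stomach markers summed to 8.42 to 11.8 CPM in treated intestine and 11 to 17.8 CPM in epithelium.

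Atoh1, the factor that specifies the secretory lineage, had overlapping levels in treated whole intestine and in separated epithelium. It had 3.98, 3.83 and 2.21 CPM in treated intestine, 2.70, 3.05 and 5.15 CPM in epithelium and 0.530, 0.220 and 0.278 CPM in mesenchyme, from 48 to 75, 66 to 108 and 2 to 8 counts. The treated and epithelial libraries overlapped, and both groups lay above all 3 mesenchyme libraries. The log2 difference was -0.12 (SE 0.34) between treated intestine and epithelium. It was 3.55 (SE 0.46) between treated intestine and mesenchyme and 3.67 (SE 0.46) between epithelium and mesenchyme. The sign of the small difference from epithelium turned with the libraries used, at 0.21 without treated library 3 and 0.29 without epithelium library 3.

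Spdef, which acts after Atoh1, had a treated mean of 47.3% of its epithelial mean, where that of Atoh1 was 91.9%. It had 12.7, 9.23 and 4.28 CPM in treated intestine, 16.9, 16.1 and 22.4 CPM in epithelium and 2.12, 0.75 and 0.870 CPM in mesenchyme. All treated libraries lay below all epithelial and above all mesenchymal ones. The log2 difference of treated intestine was -1.08 (SE 0.37) from epithelium and 3.16 (SE 0.48) from mesenchyme, and that of epithelium from mesenchyme was 4.24 (SE 0.48).

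Muc2, the gel-forming mucin itself, was almost undetected in treated intestine, with a mean of 1.99% of that in epithelium. It had 0.425, 0.174 and 0 CPM there, 16, 7.28 and 6.87 CPM in epithelium and 2.38, 0.176 and 1.08 CPM in mesenchyme. In counts these were 8, 3 and 0 in treated intestine, 391, 167 and 144 in epithelium and 9, 4 and 31 in mesenchyme. The treated libraries lay far below the epithelial ones and overlapped the mesenchymal ones. The log2 difference of treated intestine from epithelium was -5.66 (SE 0.90), a fold of 50.6, and it ranged from -6.82 without treated library 1 to -4.94 without treated library 3, with -5.05 without epithelium library 1. From mesenchyme, treated intestine differed by -2.17 (SE 1.05) on the log2 scale, with -3.40 without treated library 1, -2.84 without mesenchyme library 2 and -1.51 without treated library 3. In a fit of these 2 groups alone Muc2 did not pass the low-count filter, so this difference rests on very few counts.

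Agr2, the folding enzyme needed for Muc2 production, was lower in treated intestine as well, with a mean of 11.1% of that in epithelium. It had 7.38, 2.96 and 1.38 CPM in treated intestine, 38.7, 28.8 and 37.9 CPM in epithelium and 1.06, 0.309 and 2.05 CPM in mesenchyme. The treated libraries lay below all epithelial ones, and the lowest of them overlapped mesenchyme. On the log2 scale treated intestine differed by -3.17 (SE 0.60) from epithelium, with -3.94 without treated library 1, and 1.69 (SE 0.70) from mesenchyme.

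Fcgbp, a large mucus protein first found as a binder of the IgG Fc part, had the highest CPM of the members in epithelium, and its treated mean was 12.7% of its epithelial mean. It had 30.5, 9.93 and 7.27 CPM in treated intestine, 129.5, 153 and 92.2 CPM in epithelium and 1.85, 1.98 and 4.32 CPM in mesenchyme, so that the 3 groups did not overlap. The log2 difference of treated intestine was -2.97 (SE 0.53) from epithelium, with -3.77 without treated library 1, and 2.42 (SE 0.57) from mesenchyme. A close relative, 9530053A07Rik, lies beside Fcgbp, and no source used here says how reads shared by both were counted, so the level of either is uncertain.

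Clca3, a secreted mucus metalloprotease that newer mouse tables call Clca1, was near its mesenchymal level in 2 of the 3 treated libraries. It had 2.71, 0.348 and 0.368 CPM in treated intestine, 14.2, 6.98 and 13.9 CPM in epithelium and 0.530, 0.176 and 0.870 CPM in mesenchyme. In counts the treated libraries held 51, 6 and 8. Relative to epithelium, treated intestine differed by -3.35 on the log2 scale (SE 0.73), with -4.91 without treated library 1. From mesenchyme it was 1.06 (SE 0.89), with 2.22 without mesenchyme library 3, and it turned to -0.54 without treated library 1. In a fit of treated intestine and mesenchyme alone Clca3 did not pass the low-count filter.

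Tff3, the trefoil peptide that goblet cells secrete with mucin, had a treated mean of 35% of its epithelial mean, where the median of the 24 epithelial markers was 34.8%. It had 45.7, 34.6 and 9.15 CPM in treated intestine, 92.9, 75.7 and 86.9 CPM in epithelium and 2.38, 1.72 and 4.35 CPM in mesenchyme. The 3 groups did not overlap, and treated library 3 was well below the other treated libraries. Treated intestine had a log2 difference of -1.52 (SE 0.49) from epithelium and 3.33 (SE 0.58) from mesenchyme.

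Hepacam2, an immunoglobulin-family membrane protein used as a marker of goblet and other secretory cells, had differences close to those of Tff3. It had 8.87, 4.24 and 1.66 CPM in treated intestine, 14.6, 14.3 and 15.0 CPM in epithelium and 0.265, 0.397 and 0.557 CPM in mesenchyme, again without overlap. Its log2 difference in treated intestine was -1.58 (SE 0.46) from epithelium, with -2.23 without treated library 1, and 3.39 (SE 0.61) from mesenchyme.

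**Figure D1:**
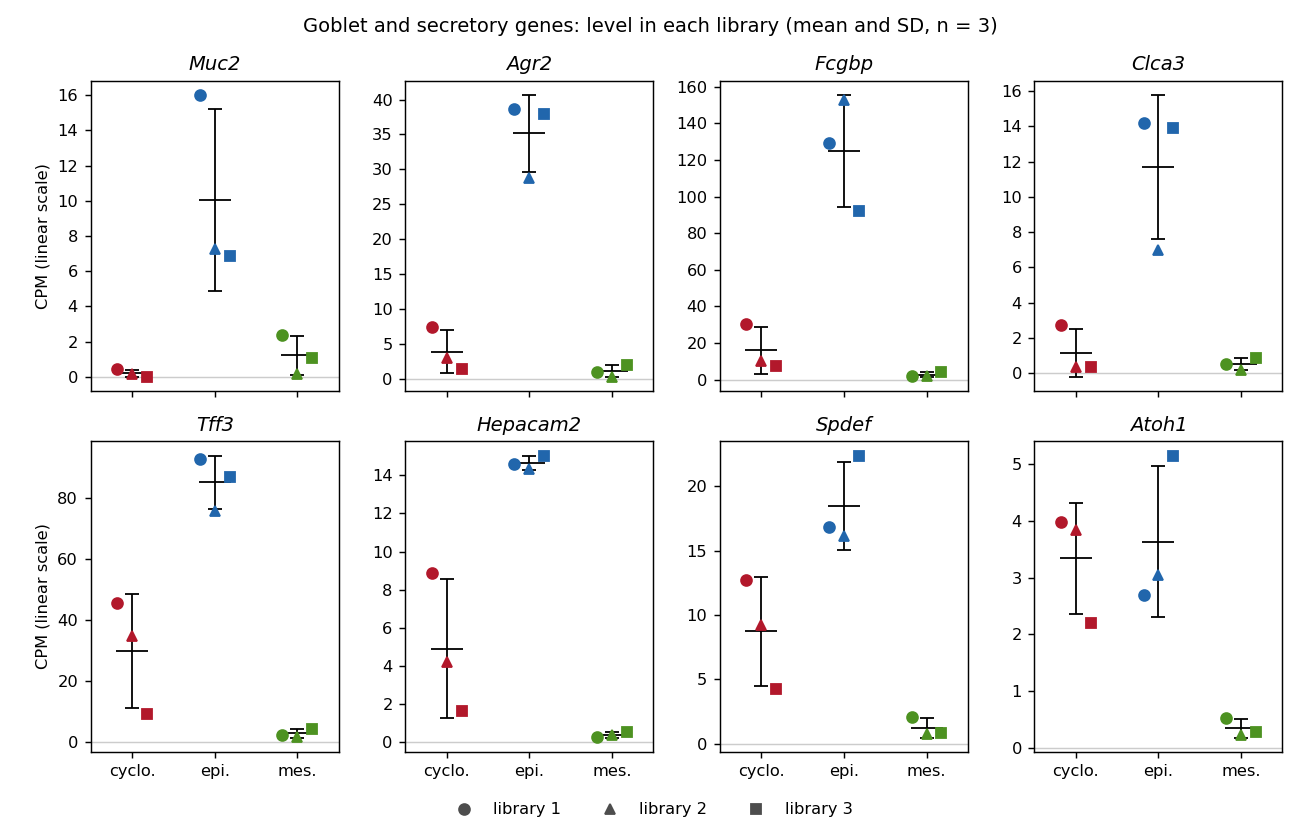
Level of each gene in each library, in CPM on a linear scale, for cyclopamine-treated whole intestine (cyclo.), epithelium (epi.) and mesenchyme (mes.). Points are libraries 1 to 3 by shape, the long bar is the mean and the whiskers the SD (n = 3). Atoh1 is the only gene whose treated and epithelial points overlap, and Muc2 the one whose treated points lie nearest 0.

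The members differed in level by more than an order of magnitude when set on a per-length scale, which the 7 members with a transcript length allow. Mean CPM per kilobase in epithelium was 173 ± 17.6 for Tff3 and 44.8 ± 7.0 for Agr2 (SD, n = 3). Below them were Fcgbp at 15.7 ± 3.85, Spdef at 9.61 ± 1.78 and Hepacam2 at 6.29 ± 0.159, then Clca3 at 3.20 ± 1.12 and Atoh1 at 1.71 ± 0.625. The epithelial libraries of Fcgbp and Spdef overlapped on this scale, as did those of Clca3 and Atoh1, and the other neighbours in the order did not. In treated intestine the order began with Tff3 at 60.5 ± 38.0, Agr2 at 4.98 ± 3.97 and Spdef at 4.55 ± 2.20 CPM per kilobase. It went on with Hepacam2 at 2.11 ± 1.57, Fcgbp at 2.01 ± 1.61, Atoh1 at 1.58 ± 0.464 and Clca3 at 0.312 ± 0.371. Neighbours from Agr2 to Atoh1 overlapped there, whereas Tff3 lay above Agr2, and Clca3 below Atoh1, in every treated library.

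The members were epithelial genes in these libraries. Epithelium lay above mesenchyme without overlap for 8 of 8 members, against 38.3% of all genes tested in that direction. The median log2 difference between epithelium and mesenchyme was 4.63 for the members and 0.04 for all genes. Fcgbp differed by 5.40 (SE 0.62) and Muc2 by 3.49 (SE 0.80), the ends of a range whose order turned with the libraries used. Hepacam2 differed by 4.97 (SE 0.61), Agr2 by 4.86 (SE 0.71), Tff3 by 4.85 (SE 0.60) and Clca3 by 4.41 (SE 0.84). Single libraries moved several of these values: without mesenchyme library 3 they were 6.27 for Agr2, 6.00 for Fcgbp, 5.58 for Clca3 and 5.49 for Tff3, without mesenchyme library 2 they were 4.27 for Agr2 and 2.83 for Muc2, and without epithelium library 1 Muc2 was at 2.86. Without mesenchyme library 3 Agr2 was thus above Fcgbp, and without epithelium library 3 Atoh1 was at 3.30, below Muc2 at 3.65. The mean level in mesenchyme was 2.18% to 12.1% of that in epithelium across the members and 1.80% to 7.03% across the 24 epithelial markers. Muc2 at 12.1% and Atoh1 at 9.43% lay outside the range of the markers. Both had their highest mesenchymal level in library 1, the one with few usable counts. It was 2.38 CPM from 9 counts for Muc2 and 0.530 CPM from 2 counts for Atoh1. These 2 shares thus lean on that library, and shares without it were not computed.

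The summed level of the members in treated whole intestine lay between those of the separated layers, but not every member did. The summed level of the 8 members was 112, 65.3 and 26.3 CPM in treated intestine, 325, 305 and 280.4 CPM in epithelium and 11.1, 5.73 and 14.4 CPM in mesenchyme. The groups did not overlap, and the treated libraries were the most spread. Tff3 and Fcgbp made up most of the sum in every treated library. Muc2 had a lower mean in treated intestine than in mesenchyme, 0.200 against 1.21 CPM, with overlapping libraries. Treated intestine lay below epithelium without overlap for 7 of 8 members, all but Atoh1, against 39.5% of all genes tested. It lay above mesenchyme without overlap for 5 of 8 members, all but Muc2, Agr2 and Clca3, against 28.0% of all genes, and below it for 0 members, against 26.8% of all genes. The median log2 difference of the members was -2.27 from epithelium and 2.79 from mesenchyme, and that of all genes was -0.02 in both comparisons. Both comparisons share the treated libraries. Against mesenchyme, leaving out mesenchyme library 3 gave 3.10 for Agr2, 3.02 for Fcgbp and 3.97 for Tff3, leaving out mesenchyme library 2 gave 1.10 for Agr2, and leaving out treated library 1 gave 0.89 for Agr2, 1.59 for Fcgbp and 2.71 for Hepacam2. In such bulk samples fewer cells of a type and less RNA per cell cannot be told apart.

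**Figure D2:**
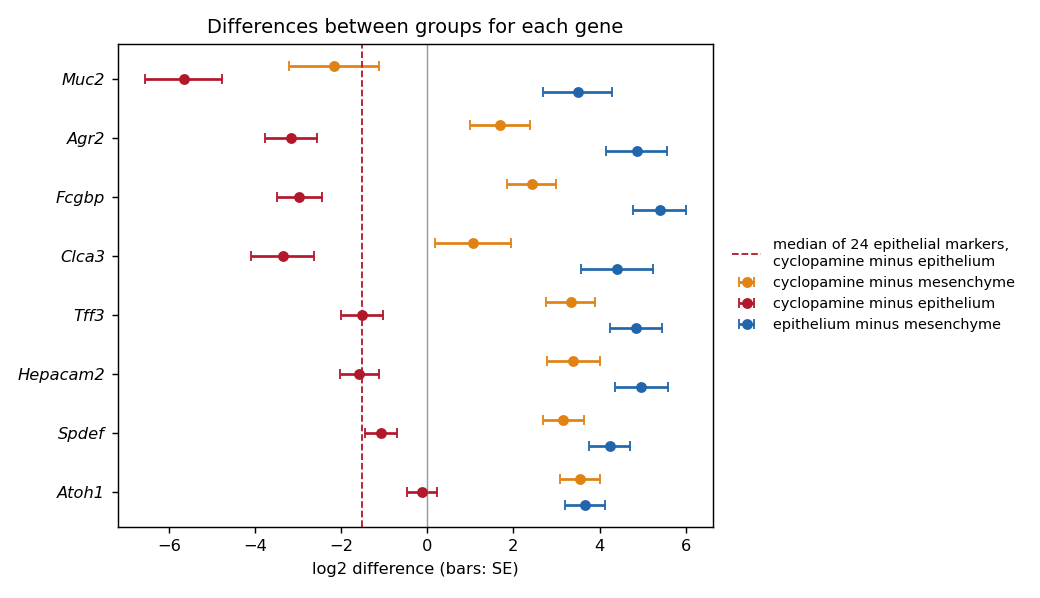
Log2 difference of each gene in each comparison, with bars for the SE of the fit over 9 libraries. The dashed line marks the median of the 24 epithelial markers between treated intestine and epithelium, -1.52; Muc2, Agr2, Fcgbp and Clca3 lie left of it in that comparison and Spdef and Atoh1 right of it.

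The treated libraries differed among themselves in the level of these genes. Treated library 1 had the highest level of all 8 members, and treated library 3 the lowest of 7, the exception being Clca3. The highest treated library exceeded the lowest 7.78-fold for Clca3, 5.36-fold for Hepacam2, 5.35-fold for Agr2, 4.99-fold for Tff3, 4.2-fold for Fcgbp, 2.97-fold for Spdef and 1.80-fold for Atoh1. The median of that ratio over the 24 epithelial markers was 1.21, and among the epithelial libraries it was 1.13. Over 784 genes called at least 8-fold higher in epithelium than in mesenchyme, with counts in every treated library, the median ratio in treated intestine was 1.44, and 264 of them were highest in treated library 1 and lowest in treated library 3. Of these genes 20 had a larger ratio than Clca3, 35 than Hepacam2, 36 than Agr2, 40 than Tff3, 46 than Fcgbp, 78 than Spdef and 235 than Atoh1. Such a spread was thus also seen in other epithelial genes. The summed level of pancreas markers was 95.7, 75.2 and 286 CPM in treated libraries 1, 2 and 3, so that it was highest in the library with the lowest goblet gene levels, and its part in that result was not tested.

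Epithelial markers were themselves lower in treated whole intestine than in separated epithelium, so each member was also set against the mean log2 level of the 24 epithelial markers in its own library. That marker level was 6.38, 6.44 and 6.14 in treated intestine and 7.79, 7.86 and 7.83 in epithelium, on the log2(CPM + 0.5) scale, a difference of -1.51. Relative to it, the members formed 3 sets. Atoh1 was above its epithelial level, Spdef, Tff3 and Hepacam2 were near it, and Muc2, Agr2, Fcgbp and Clca3 were below it.

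Atoh1 relative to the markers was at -4.21, -4.33 and -4.70 in treated intestine and -6.11, -6.03 and -5.33 in epithelium. All treated libraries lay above all epithelial ones. The difference was 1.41 (SE 0.29), a fold of 2.66. Spdef was at -2.65, -3.16 and -3.88 in treated intestine and -3.67, -3.80 and -3.32 in epithelium, which overlapped, with a difference of 0.36 (SE 0.39). Tff3 differed by -0.26 (SE 0.62) and Hepacam2 by -0.22 (SE 0.55), both with overlap, and both turned to positive values without treated library 3, 0.33 for Tff3 and 0.23 for Hepacam2.

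Muc2 relative to the markers was at -6.49, -7.01 and -7.14 in treated intestine and -3.74, -4.90 and -4.95 in epithelium, a difference of -2.35 (SE 0.44) without overlap. Because Muc2 in treated intestine is near the added 0.5 CPM, the size of this difference depends on it, at -3.75 with 0.1 CPM and -0.91 with 2 CPM. Agr2 was at -3.40, -4.65 and -5.23 in treated intestine and -2.49, -2.98 and -2.57 in epithelium, a difference of -1.74 (SE 0.56) without overlap. Fcgbp differed by -1.67 (SE 0.61) without overlap and Clca3 by -1.62 (SE 0.70) with overlap. Clca3 was at -2.23 without treated library 1, -2.22 with 0.1 CPM added and -0.68 with 2 CPM added.

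**Figure D3:**
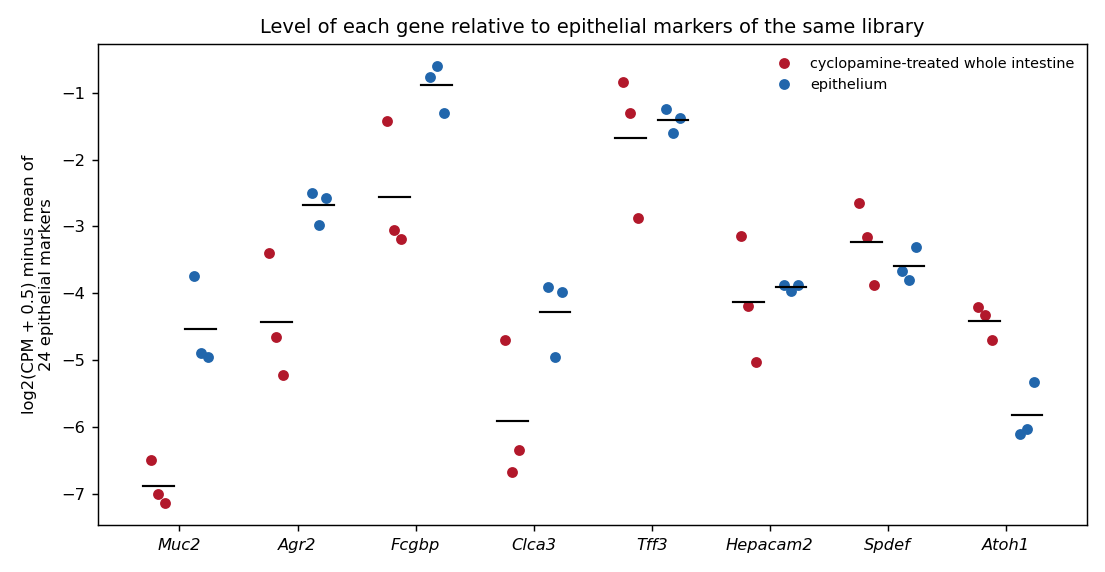
Level of each gene minus the mean of 24 epithelial markers of the same library, on the log2(CPM + 0.5) scale, in treated whole intestine and in epithelium (points are libraries, bars are means, n = 3 each). Genes are ordered by the difference, from Muc2 at -2.35 to Atoh1 at 1.41.

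A wider set of epithelial genes gives these differences a scale. Among the 792 genes called at least 8-fold higher in epithelium than in mesenchyme, the same difference had a median of 0.29, with 5% of genes below -1.34 and 5% above 1.75. Muc2 had 11 of the 792 genes below it, Agr2 21, Fcgbp 24 and Clca3 26. Tff3 had 210 genes below it, Hepacam2 220, Spdef 429 and Atoh1 716. With 0.5 CPM added, the mucus genes and Agr2 thus stood in the low tail, apart from Tff3, and Atoh1 in the upper part but inside the central range. The members belong to this set themselves, and it was picked by high levels in the same epithelial libraries, so the ranks are a description. With 2 CPM added Muc2 was at -0.91, Clca3 at -0.68, Agr2 at -1.30 and Fcgbp at -1.55. Without treated library 3, with 0.5 CPM added, Agr2 was at -1.34 and Fcgbp at -1.35, at the edge of the tail. Ranks were not computed for those settings, so the place of Muc2, Clca3, Agr2 and Fcgbp in the tail is uncertain.

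**Figure D4:**
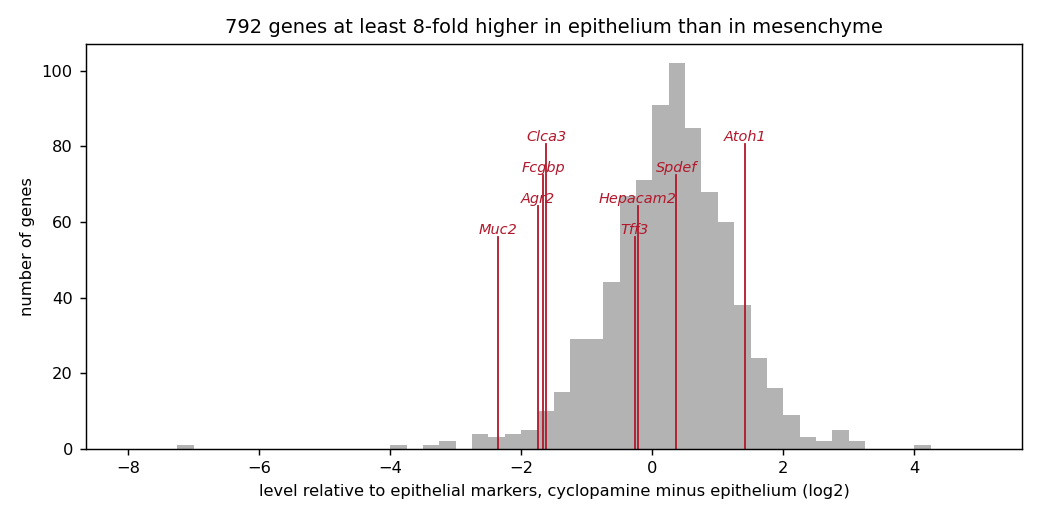
Histogram of the difference between treated intestine and epithelium in level relative to epithelial markers (log2, x axis) over the 792 genes at least 8-fold higher in epithelium than in mesenchyme (number of genes, y axis). Vertical lines mark the 8 members, whose label heights carry no meaning. With 0.5 CPM added, Muc2, Agr2, Fcgbp and Clca3 lie below -1.34, the value under which 5% of the genes fall.

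Counts of the members set against the Atoh1 count of the same library need no scaling between libraries. Per Atoh1 count there were 0.107, 0.0455 and 0 Muc2 counts in treated intestine and 5.92, 2.39 and 1.33 in epithelium. For Agr2 the ratios were 1.85, 0.773 and 0.625 in treated intestine and 14.3, 9.44 and 7.35 in epithelium. For Spdef they were 3.19, 2.41 and 1.94 in treated intestine and 6.24, 5.29 and 4.34 in epithelium. The ratios of the 7 other members to Atoh1 were lower in every treated library than in every epithelial one. The same held for 58.5% of the other 791 genes high in epithelium, so a lower ratio to Atoh1 was common among such genes.

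Other goblet cell genes moved less uniformly. This list, like those that follow, was chosen with earlier results of these data known, so its calls are a description. Of 15 further goblet genes in the table, 10 passed the low-count filter. Between treated intestine and epithelium, 3 of the 10 were called lower and 1 higher by edgeR's quasi-likelihood test with Benjamini-Hochberg adjustment, against 29.8% and 32.1% of all genes tested. The solute carrier gene Slc12a8 fell to 3.82, 1.74 and 1.98 CPM in treated intestine, against 14.8, 13.9 and 11.1 CPM in epithelium (log2 difference -2.40, SE 0.40, adjusted p = 0.000596). The calpain gene Capn9 and the zinc receptor gene Gpr39 were the other genes called lower, at -2.73 (SE 0.73) and -0.91 (SE 0.18). Capn9 had only 3, 2 and 0 counts in treated intestine and 13, 18 and 11 in epithelium, so its difference rests on few counts. Sytl4, a vesicle transport gene that was higher in mesenchyme than in epithelium, was the gene called higher, at 1.30 (SE 0.23). Scin, an actin-severing protein, had a log2 difference of 0.07 (SE 0.31) that did not pass the test, with 18.9, 21.2 and 15.5 CPM in treated intestine and 11.7, 20.3 and 20.7 CPM in epithelium. Zg16 and Retnlb, genes of mature goblet cells, had at most 1 count in any library and were not tested. Between epithelium and mesenchyme 8 of the 10 were called higher and 1 lower, against 34.6% and 35.1% of all genes.

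Mucin and mucin-building genes were mostly epithelial, and part of them was lower in treated intestine. The membrane mucin Muc13 had 187, 194 and 141 CPM in treated intestine and 649.6, 594 and 524 CPM in epithelium (log2 difference -1.76, SE 0.32, adjusted p = 0.00111). Of 20 tested genes of mucin O-glycosylation, 15 were called higher in epithelium than in mesenchyme and 3 lower, against 34.6% and 35.1% of all genes. Between treated intestine and epithelium 8 of the 20 were called lower and 3 higher, against 29.8% and 32.1% of all genes. The largest falls were in B3gnt3 (-2.20, SE 0.29), which extends core glycans, and in the transferases Galnt6 (-2.15, SE 0.27) and Galnt3 (-1.87, SE 0.15), which start them, with Gcnt3, which branches them, at -1.84 (SE 0.40). The list had a median of -0.55 in this comparison, against -0.02 for all genes and -1.52 for the 24 epithelial markers, all of which were called lower.

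Genes of the endoplasmic reticulum secretory machinery gave a smaller and mixed change. Of 23 tested, 10 were called lower and 2 higher in treated intestine than in epithelium, against 29.8% and 32.1% of all genes, with a median of -0.42. Ern2, the stress sensor restricted to mucous epithelia, fell to 2.34, 0.755 and 0.598 CPM in treated intestine, against 9.74, 8.24 and 11 CPM in epithelium (log2 difference -2.97, SE 0.60, adjusted p = 0.00193). Its widely expressed relative Ern1 fell by 1.82 on the log2 scale (SE 0.23). Xbp1, the factor that both sensors activate by splicing, was called lower by a small margin, at -0.33 (SE 0.13, adjusted p = 0.046), and this call was lost in 9 of the 15 alternative settings. Creb3l1 (-0.02, SE 0.27) and Creb3l4 (0.19, SE 0.36) did not pass the test. The number of its genes called lower ranged from 3 to 13 over the 15 settings. It was 3 without epithelium library 1, epithelium library 2, treated library 1 or treated library 3, 4 without epithelium library 3, and 5 without mesenchyme library 3, without treated library 2 or with no low-count filter. The number called higher was 5 without mesenchyme library 1.

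Other transcription factors of the secretory lineage were lower in 10 of 22 cases and higher in 6 between treated intestine and epithelium, against 29.8% and 32.1% of all genes. The largest fall was that of Pax4, an enteroendocrine factor, at -3.65 (SE 0.52, adjusted p = 0.000246), with 0.106, 0.0581 and 0.322 CPM in treated intestine and 2.37, 2.05 and 2.20 CPM in epithelium. Elf3, an epithelial ETS factor, was lower as well, at -1.70 (SE 0.27). Klf4, a factor of goblet cell differentiation, was at -1.34 (SE 0.31), and Sox9, a progenitor and Paneth cell factor, at -1.27 (SE 0.25). The 24 epithelial markers, all called lower, had a median of -1.52 in the same comparison, and Elf3, Klf4 and Sox9 lay near it. The part of epithelial content in their differences was not tested, and their levels relative to the markers were not computed. Neurog3, which specifies enteroendocrine cells, had 10.7, 8.30 and 8.88 CPM in treated intestine and 14.6, 14.3 and 17.7 CPM in epithelium, a log2 difference of -0.74 (SE 0.25, adjusted p = 0.0266) whose call was lost in 6 of the 15 settings. Gfi1 (-0.66, SE 0.55) and Foxa3 (-0.51, SE 0.29), which act in goblet cell formation, did not pass the test. Sox4 was called higher, at 2.34 (SE 0.20), and was also higher in mesenchyme than in epithelium.

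Most genes of the Notch pathway, which restrains Atoh1, were higher in the libraries that hold mesenchyme. Of 22 tested, 16 were called lower and 2 higher in epithelium than in mesenchyme, against 35.1% and 34.6% of all genes. In treated intestine 13 were called higher and 3 lower than in epithelium, with 1 lower without treated library 3, against 32.1% and 29.8% of all genes. The largest rises were in the target genes Hey1 (4.64, SE 0.35), Hey2 (4.22, SE 0.35) and Hes5 (3.64, SE 0.66) and the receptor gene Notch4 (3.53, SE 0.41), and the ligand gene Dll4 rose by 2.82 (SE 0.27). Hey1, Hey2, Notch4 and Dll4 are known from blood vessels. The 20 mesenchyme markers were all called higher in the same comparison, with a median of 3.46, and their part in the Notch counts was not tested. Hes1, the Notch target that represses Atoh1, had 45.6, 45.4 and 37.2 CPM in treated intestine and 58.0, 57.3 and 62.2 CPM in epithelium. It was called lower, at -0.47 (SE 0.12, adjusted p = 0.00659), and the call was lost without epithelium library 3 and without treated library 3. All 24 epithelial markers were also called lower in this comparison, with a median of -1.52, a larger difference than that of Hes1. The parts of epithelial and mesenchymal content in the Hes1 call were not tested, and the level of Hes1 relative to the markers was not computed. Dll1, the ligand made by secretory precursors, had 31.4, 26.9 and 21.3 CPM in treated intestine and 30.6, 30.5 and 23.3 CPM in epithelium, with a log2 difference of -0.09 (SE 0.21) that did not pass the test. Notch1 (0.32, SE 0.33) did not pass it either.

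Markers of the other secretory cell types gave 3 different pictures. Enteroendocrine genes were called lower for 7 and higher for 5 of 17 in treated intestine against epithelium, where 29.8% and 32.1% of all genes were called. The lower calls numbered 4 without epithelium library 1 and without treated library 2, and the higher calls 3 without treated library 1. The tachykinin gene Tac1 fell most (-4.66, SE 0.51) and the ghrelin gene Ghrl fell by 2.68 (SE 0.52), while Chga, the general granule gene, was called higher at 0.79 (SE 0.28, adjusted p = 0.0342), a call lost without treated library 1 and without treated library 2. Of the Paneth list 5 of 10 genes passed the filter and 2, the lysozyme genes Lyz1 and Lyz2, were called higher. Lyz2 is also a macrophage gene, and both were lower in epithelium than in mesenchyme. Lyz1 was also called higher in treated intestine than in mesenchyme, but this call was lost in several settings, such as without treated library 1. The summed level of the Paneth list was 51.2 to 68.8 CPM in treated intestine, 31.3 to 41.4 CPM in mesenchyme and 11.8 to 20.4 CPM in epithelium. Of 9 tuft cell genes 8 were called higher and 1 lower. In epithelium against mesenchyme 8 of the 9 were called lower and 1 higher, with a median of -3.87, against 35.1% and 34.6% of all genes. Between treated intestine and mesenchyme the median was -0.40. The part of mesenchymal RNA in the tuft list calls was not tested. Dclk1 was at 17.7, 19.2 and 21.1 CPM in treated intestine, 1.47, 0.872 and 0.525 CPM in epithelium and 19.3, 17.3 and 23.0 CPM in mesenchyme. Its treated and mesenchymal libraries overlapped and lay above all epithelial ones.

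Relatives of the members did not follow them. Tff1, a trefoil peptide of stomach mucus, had 1.06, 1.39 and 0.920 CPM in treated intestine and 0.450, 1.44 and 1.24 CPM in epithelium, and its log2 difference of 0.11 (SE 0.52) did not pass the test. Of the 4 other Clca genes tested, all were called higher in treated intestine than in epithelium, against 32.1% of all genes and all 20 mesenchyme markers. Their symbols are the deposited ones, so the Clca1 named here is a separate gene from the member Clca3, which newer mouse tables call Clca1. Of these relatives, Clca1, Clca2 and Clca5 were called lower in epithelium than in mesenchyme, at -3.83 (SE 0.42), -1.55 (SE 0.41) and -5.11 (SE 0.50). Clca5 was also called lower in treated intestine than in mesenchyme, at -2.33 (SE 0.42). The part of mesenchymal RNA in these differences from epithelium was not tested. The remaining one, Clca4, had 25.8, 18.6 and 12.4 CPM in treated intestine, 2.37, 6.19 and 2.86 CPM in epithelium and 0.265, 0.176 and 2.51 CPM in mesenchyme. Its log2 difference was 2.31 from epithelium (SE 0.65, adjusted p = 0.0114) and 3.93 from mesenchyme (SE 0.75, adjusted p = 0.00308), so it was higher in treated intestine than in either layer, opposite to Clca3 against epithelium.

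**Figure D5:**
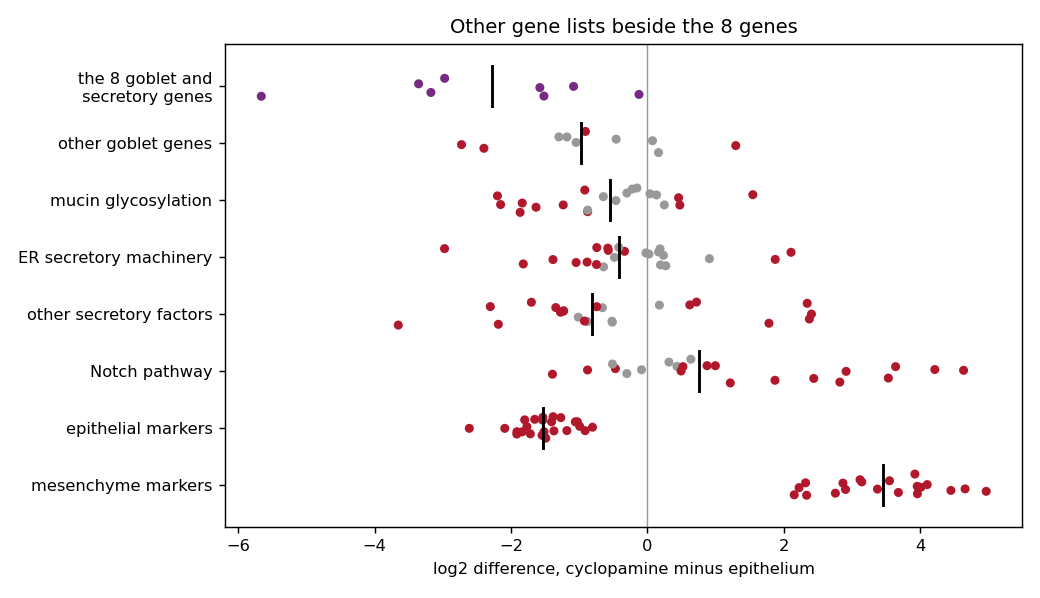
Log2 difference between treated intestine and epithelium for the tested genes of 7 lists and the 8 members (purple). Red points passed the test at an adjusted p of 0.05, grey points did not, and black bars are list medians, from -2.27 for the members to 3.46 for the mesenchyme markers; vertical scatter within a list carries no meaning.

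Across the 9 libraries, correlations of log2 CPM between members ran from 0.27 for Muc2 with Atoh1 to 0.99 for Tff3 with Hepacam2. Muc2 was nearest to Clca3 (0.87) and Agr2 (0.82), and Atoh1 to Spdef (0.95) and Tff3 (0.91). Among all other tested genes, the one most like Tff3 was the secretin gene Sct (0.99). For Agr2 it was the transporter gene Slc6a7 (0.99), followed by Reg4 (0.98). For Fcgbp it was its neighbour 9530053A07Rik (0.99), for Clca3 the sucrase-isomaltase gene Sis (0.98) and for Muc2 the zinc transporter gene Slc39a14 (0.98). For Spdef it was Hao2 (0.99) and for Atoh1 the espin gene Espn (0.98). The gene closest to the mean profile of the 8 members was Camk1d (0.99). All these values share the same 9 libraries in 3 groups, so the group differences enter every one of them, and they are given as a description.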

How the data were processed

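The authors deposited whole read counts per RefSeq identifier, in 2 tables that hold 24016 identifiers each and share 6 identical columns, those of the separated layers. Per the submitters' processing notes, alignment used TopHat2 2.0.13 with mm9 as the genome, and DESeq is named with no version. How reads were counted, with what strand setting and on which annotation, is not stated, so genes with an overlapping or antisense neighbour or a close copy are uncertain. The 27 symbols that a spreadsheet had changed to dates were named through their identifiers.

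Members were found by gene symbol. The members and the 16 gene lists were chosen with earlier results of these data known. The counts of all 9 libraries entered one fit in edgeR 4.0.16 under R 4.3.3. It used a minimum count of 10 in filterByExpr, TMM scaling and two-sided quasi-likelihood F tests, with p-values adjusted by Benjamini-Hochberg over 15699 identifiers at a threshold of 0.05. A log2 difference is the first group named minus the second. Its SE is the absolute difference divided by the root of F. CPM use the TMM-scaled library size. Levels relative to epithelial markers subtract the mean log2(CPM + 0.5) of 24 markers and carry no test. With 3 against 3 libraries, an exact permutation test cannot go below p = 0.10. Transcript lengths come from the RefSeq links of GENCODE.

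From each list, the text takes genes among the 4 largest log2 differences past the threshold in epithelium against mesenchyme and in treated intestine against epithelium, 24 genes set by name, and the genes most correlated with each member. Not every gene so picked is described. The fit was tested on simulated counts with known changes. Libraries of each group differed by more than sampling noise (chi-square per degree of freedom 9.27 to 32.6, and 1089 and 1358 for pairs with mesenchyme library 1), so none looked like a library deposited more than once, and each was counted as a replicate of its label. This does not show that they came from separate embryos. Alternatives changed the scaling, the filter, the libraries in the fit, the marker set and the added CPM, replaced the test by DESeq2 1.42.0, used the replicate number as a block, and left out each library in turn.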

Additional observations from a re-analysis of the deposited data

How the results depend on the processing

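The counts of members without overlap between groups stayed within 1.5 times when each library was left out in turn, except that the count of members lower in treated intestine than in mesenchyme, 0 with all libraries, ranged from 0 to 1. The added CPM set the size of the differences relative to epithelial markers for low genes: Muc2 was at -3.75 with 0.1 CPM and -0.91 with 2 CPM, Clca3 at -0.68 with 2 CPM, and Hepacam2 turned to 0.068 with 2 CPM. Leaving out each library gave a range of -0.68 to 0.33 for Tff3 and of -0.71 to 0.23 for Hepacam2 in that measure. The log2 difference of Clca3 between treated intestine and mesenchyme ranged from -0.54 without treated library 1 to 2.22 without mesenchyme library 3. That of Atoh1 between treated intestine and epithelium ranged from -0.19 to 0.29, with positive values without epithelium library 3 (0.29) and without treated library 3 (0.21). The cause of these changes was not tested.

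The number of genes called lower in treated intestine than in mesenchyme was 3211, and 1972 to 3511 with each library left out. The lowest values, 1972, 2019 and 2136, came from leaving out treated libraries 1, 2 and 3, and leaving out mesenchyme libraries gave 2717 to 3511. The cause of this was not tested. The other counts over all genes stayed within 1.5 times. Counts within single gene lists moved more: the endoplasmic reticulum genes called lower between treated intestine and epithelium ranged from 3 to 13 (10 with the settings used), the enteroendocrine genes from 4 to 7 (7) and the Notch genes from 1 to 4 (3). With the replicate number as a block, 10982 genes were called between epithelium and mesenchyme (10933 without), 6581 between treated intestine and mesenchyme (6469 without) and 9777 between treated intestine and epithelium (9711 without). Deviations of same-numbered libraries correlated between -0.20 and 0.30, against -0.26 to 0.18 for other pairs, with 7 of 9 same-numbered pairs above 0 and 4 above 0.1. A shared number was read as pairing only where every pair passed 0.1, so it was used as a name, and whether numbers mark a shared source is not known. Of 3217 calls of named genes over the alternatives, 3082 held, 134 were lost and 1 reversed: Cel, a pancreas gene that takes most of its mesenchymal level from mesenchyme library 2, ranged from -4.31 to 2.25 between epithelium and mesenchyme, with 2.25 without that library.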

Other observations

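Genes outside the mucus programme gave several further values. Avil, an actin-binding protein used as a tuft cell marker, was the gene of the tuft list that was called lower, with 0.531, 0.348 and 0.460 CPM in treated intestine and 39.2, 23.4 and 10.7 CPM in epithelium (log2 difference -5.75, SE 0.60, adjusted p = 4.28e-05 by edgeR's quasi-likelihood test). Among stomach markers, Anxa10 was called lower in treated intestine than in epithelium (-2.83, SE 0.59), as was the gastrokine gene Gkn1 (-2.68, SE 0.47), and the tight junction gene Cldn18 was called higher (3.21, SE 0.42). Epithelial Muc4, a membrane mucin, had a log2 difference of -0.23 (SE 0.47) between treated intestine and epithelium that did not pass the test. Of the Paneth cell defensins, Defa24 had 7.86, 6.10 and 0.506 CPM in treated intestine and 7.16, 1.96 and 7.59 CPM in epithelium. Its lowest value lay in treated library 3, and reads shared among near-identical defensin genes make its level uncertain.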
